A study of Mus musculus with 51 samples.

Results

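The constitutive 26S proteasome was followed as a set of 38 genes, read from the expression table by gene symbol, out of 40077 gene rows in all. The set holds the 7 genes of the alpha ring and the 7 of the beta ring of the 20S core, the 6 ATPases and 11 non-ATPase subunits of the 19S cap, 3 chaperones of cap assembly (Psmd5, Psmd9, Psmd10), 2 activators that can replace the cap (Psme3, Psme4), and the pair that controls the set, the transcription factor Nfe2l1 and the protease Ddi2. All 38 symbols occurred once, and all 38 passed the filter on low counts in every comparison. The question was whether these genes rise when UBA1, the main enzyme that activates ubiquitin for transfer to proteins, is inhibited, depleted or overexpressed.

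The 26S proteasome degrades proteins tagged with ubiquitin. Its beta ring carries the cutting sites (Psmb5, Psmb6 and Psmb7), its alpha ring gates the entry, and its cap binds, deubiquitinates and unfolds the substrate. When the proteasome cannot keep up, the membrane-bound factor NRF1, encoded by Nfe2l1, is drawn out of the endoplasmic reticulum by the segregase p97 (Vcp), freed of its sugars by the N-glycanase encoded by Ngly1 and cut by DDI2, and it then switches on the proteasome genes together through antioxidant response elements. This recovery is known as the bounce-back response.

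RNA-seq of 51 libraries was used. Myc-CaP cells, a mouse prostate cancer line driven by Myc, were cultured untreated or with the UBA1 inhibitor TAK-243 at 50 nM for 18 h, each with or without interferon-γ (IFN-γ) at 1 ng/mL for 18 h, with 2 libraries in each of the 4 groups. A separate set of Myc-CaP cells carried a control sgRNA or an sgRNA against Uba1 (sgUba1), again with or without IFN-γ and 2 libraries a group. Tumors were taken from mice injected at 6 to 8 weeks of age: Myc-CaP tumors in male FVB mice with control sgRNA (n = 3) or sgUba1 (n = 7), with empty vector (n = 3) or Uba1 overexpression (OE, n = 4), and with vehicle (n = 6) or TAK-243 (n = 5, 25 mg/kg intravenously 2 times a week), and B16-BL6 melanomas in C57BL/6 mice with control sgRNA (n = 3) or sgUba1 (n = 4). Controls of the sgRNA and OE experiments carried a vector of their own, and by the study's methods the sgRNA lines were expanded from single sorted cells, and the labels do not say which line a library came from. Tumors were injected in both flanks and the labels do not say which tumors shared a mouse, and for the cells nothing names separate cultures, so that p-values measure the spread between these samples, which may be technical.

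Libraries held 12860987 to 38032395 estimated counts in cells and 8652097 to 35693203 in tumors, and the lowest count of any member in any library was 162. Uba1 was checked first. It was at 283 and 295 CPM (counts scaled to library size, as all CPM values here) in sgUba1 cells against 526 and 533 in their controls, at 208 to 247 against 410 to 455 in B16-BL6 tumors, and at 631 to 747 against 278 to 310 in OE tumors. In Myc-CaP tumors labelled sgUba1, 3 tumors (replicates 1 to 3, 197 to 211 CPM) lay below the controls (320 to 337) and 4 tumors (replicates 4 to 7, 361 to 383) lay above them. Epithelial markers summed to at most 4.53 CPM in untreated control Myc-CaP cells, although the label of this line is epithelial, and melanocyte markers summed to 10430 to 12219 CPM in B16-BL6 tumors. Tumors also hold stroma and leukocytes, and in such bulk samples fewer cells of a type and less RNA per cell cannot be told apart.

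Among themselves the members differed widely in level per transcript length. In untreated control cells the alpha ring genes averaged 83.3 to 366 TPM (a level scaled to transcript length and library size) and the beta ring genes 112 to 330 TPM, while the assembly chaperones stayed at 26.2 to 45.4 TPM. The highest member was Psma3 (366 ± 25.6 TPM, SD, n = 2), an alpha ring subunit, and the lowest was Psmd10 (26.2 ± 2.56 TPM), a chaperone also known as gankyrin. Nfe2l1 stood at 44.2 ± 1.18 TPM and Ddi2 at 30.6 ± 0.365 TPM. In control sgRNA tumors the order was alike at its ends, with Psma3 at 306 ± 16.6 TPM in Myc-CaP (SD, n = 3) and the chaperones Psmd9 and Psmd10 at 26.1 ± 4.18 and 28.9 ± 6.98 TPM, a pair that did not differ beyond its spread.

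TAK-243 moved most of the set upward in cultured cells, but not all of it. Without IFN-γ, 28 of 38 members rose and 7 fell, where 32.3% of all 14551 genes tested rose and 34.0% fell. The rises were small: the median log2 fold change of the members was 0.24, against 0.03 over all genes tested, and the largest rise was 0.71 (Psmb2). All 6 ATPases rose, as did 5 of 7 genes in each ring, 8 of 11 non-ATPase subunits and 2 of 3 assembly chaperones. The falls reached further than the rises, to −1.05 for Psmd7. Scaling by library totals alone, which shifted the median of all genes from 0.03 to −0.09, gave 21 members higher and 9 lower. A change of scaling shifts all genes by nearly the same amount, so the distance between the 2 medians (0.21) could not change with it.

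**Figure D1:**
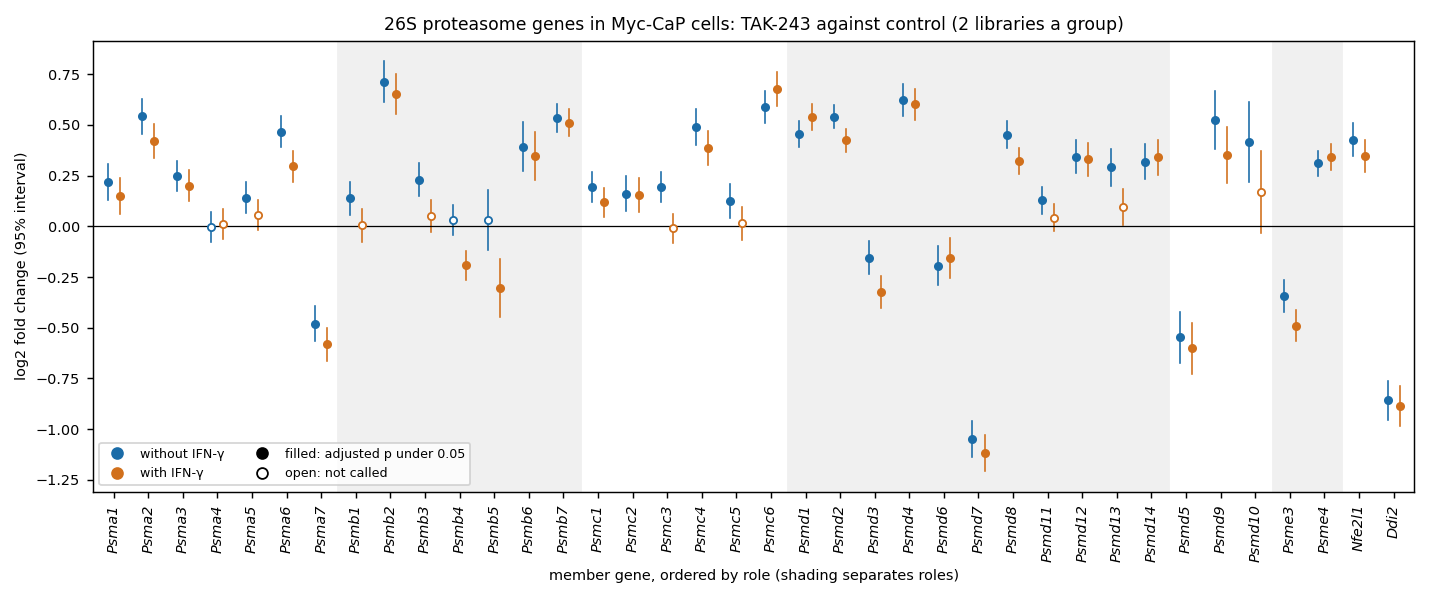
Log2 fold change of each of the 38 members with TAK-243 against control in Myc-CaP cells, without IFN-γ (blue) and with it (orange), with 95% intervals from the edgeR fit and shading between roles; filled points passed an adjusted p of 0.05. Most points lie between 0 and 0.75, while Psmd7 and Ddi2 lie lowest in both series.

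Psmb2, a beta ring subunit without a cutting site, had 77.2 and 87.4 CPM in control cells and 131 and 139 CPM with TAK-243. Both treated libraries were above both controls, by 0.71 on the log2 scale (standard error 0.05; edgeR, adjusted p = 1.12e-13). Such a gap was found upward for 41.1% of all genes. Psmd4, the ubiquitin receptor also called Rpn10, went from 144 and 145 CPM to 230 and 213 CPM (log2 fold change 0.62). Psmc6, an ATPase of the cap base, went from 138 and 145 CPM to 213 in both treated libraries (log2 fold change 0.59). The deubiquitinase of the cap, Psmd14, had 104 and 107 CPM in control cells and 129 and 135 CPM with TAK-243 (log2 fold change 0.32; edgeR, adjusted p = 7.96e-08).

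Of the 3 catalytic subunits, Psmb6 and Psmb7 rose and Psmb5 did not pass. Psmb7, which carries the trypsin-like site, went from 153 and 158 CPM to 224 and 226 CPM (log2 fold change 0.54, standard error 0.03, adjusted p = 1.01e-14, edgeR). Psmb6, with the caspase-like site, went from 54.1 and 53.7 CPM to 73.7 and 67.4 CPM (log2 fold change 0.39, adjusted p = 1.06e-06). Psmb5, with the chymotrypsin-like site, had 42.6 and 40.7 CPM in control cells and 41.5 and 43.7 CPM with TAK-243. Its groups overlapped, and its log2 fold change was 0.03 with a 95% interval from −0.12 to 0.18 (adjusted p = 0.725, edgeR).

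Psmd7, the partner of Psmd14 in the cap lid, fell from 160 and 165 CPM to 78.9 and 77.8 CPM (log2 fold change −1.05, standard error 0.04, adjusted p = 7.48e-19, edgeR). This was the lowest value of the set, with no overlap between groups, as was so downward for 39.9% of all genes. Psmd5, an assembly chaperone that holds the ATPase base, fell from 70.9 and 66.9 CPM to 48.2 and 45.9 CPM (log2 fold change −0.55). The other subunits that fell were Psma7 (−0.48), Psmd6 (−0.19) and Psmd3 (−0.16), together with Psme3 (−0.34), the nuclear activator also called PA28γ. The activator Psme4, known as PA200, rose by 0.31.

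The transcription factor and its protease went in opposite directions. Nfe2l1 rose from 121 and 125 CPM to 169.5 and 160 CPM (log2 fold change 0.43, standard error 0.04, adjusted p = 8.95e-11, edgeR). Ddi2 fell from 129 and 137 CPM to 74.2 and 71.98 CPM (log2 fold change −0.86, standard error 0.05, adjusted p = 5.54e-16). Neither gene's groups overlapped, as was so for 41.1% of all genes upward and 39.9% downward. The estimated count of Nfe2l1 was a whole number in none of the 51 libraries, so that some of its reads were divided with other features. The same held for Psma2, Psmd5, Psmd9 and Psmd11, and the counts of Psma3 and Psmb5 were whole in 1 library each. Those of Psmd7 and Psmb2 were whole, within 0.001, in all 51.

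**Figure D2:**
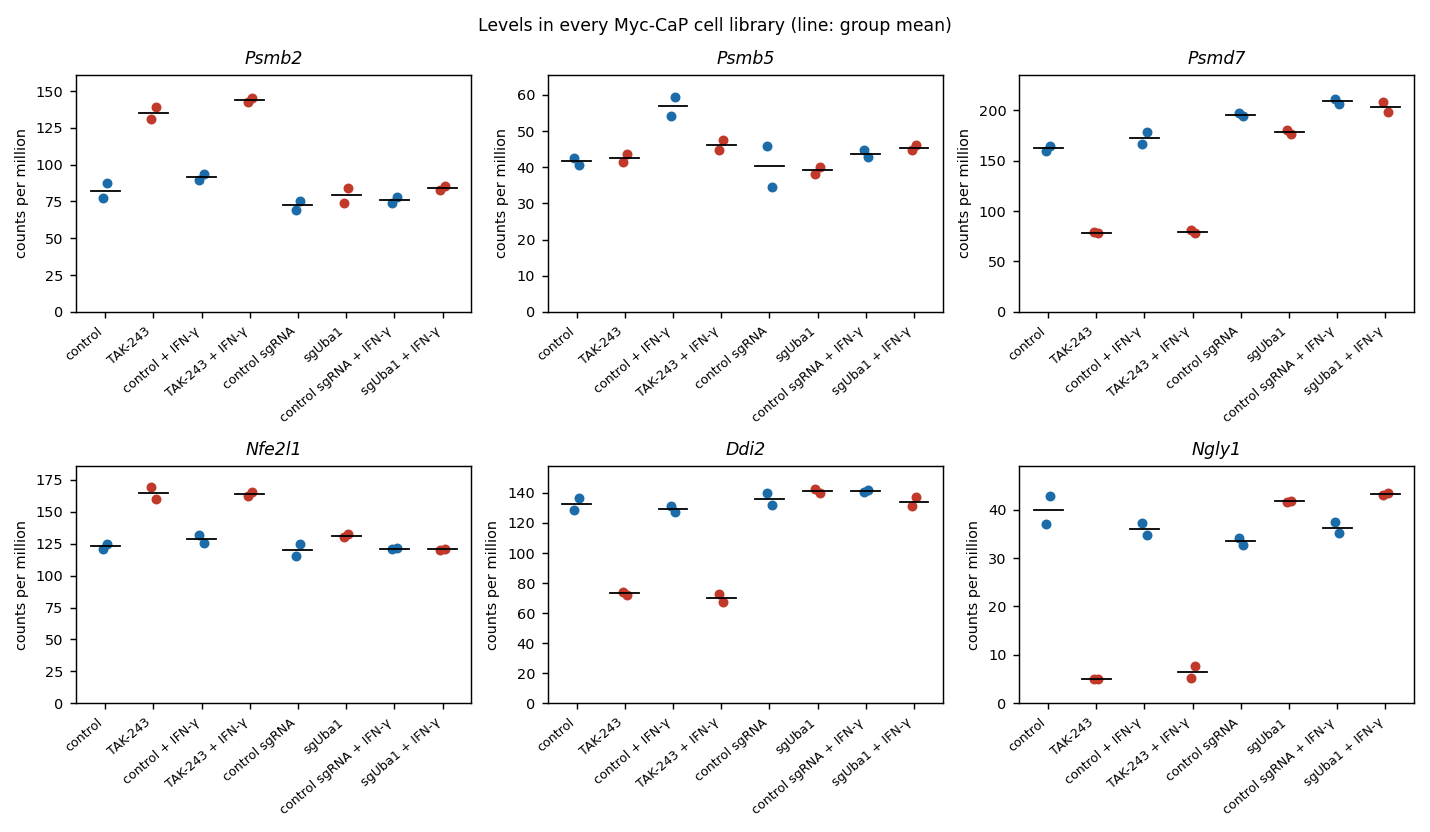
CPM of 5 members and of Ngly1 in each of the 16 Myc-CaP cell libraries, in 8 groups of 2 libraries with the group mean as a line; blue points are controls and red points TAK-243 or sgUba1. Psmd7, Ddi2 and Ngly1 are low in the 4 TAK-243 libraries and not in the 4 sgUba1 libraries, and Psmb2 and Nfe2l1 are high in the 4 TAK-243 libraries.

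Other genes of the pathway reached values further from 0 than the members. Of 43 tested, 22 rose and 14 fell without IFN-γ. Ngly1, the N-glycanase that acts on NRF1, fell from 37.1 and 42.8 CPM to 5.09 and 5.06 CPM (log2 fold change −2.98, standard error 0.13, adjusted p = 1.86e-18, edgeR). Among the 5 chaperones of 20S assembly, the 4 genes Psmg1 to Psmg4 fell and Pomp rose by 0.25. The largest of these falls was in Psmg3, from 16.02 and 13.5 CPM to 3.01 and 2.89 CPM (log2 fold change −2.32). Psmb10, a catalytic subunit induced by interferon, fell from 10.5 and 8.93 CPM to 4.91 and 4.01 CPM (−1.10). The largest rises were in Maff (2.37), a small partner of NRF1 on DNA, in Zfand2a (2.03), a stress-induced protein that binds the proteasome, and in Bach1 (1.71), a repressor at the same elements. Vcp rose by 0.25. The summed epithelial markers moved with the treatment as well, from 3.68 and 4.53 CPM in control cells to 13.2 and 15.6 CPM with TAK-243, and Uba1 itself rose from 452 and 445 CPM to 594 and 565 CPM (log2 fold change 0.37); their part in the result was not tested.

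With IFN-γ present, TAK-243 gave 20 members higher and 9 lower, where 32.0% of all genes tested rose and 36.2% fell, and the median of the members was 0.15 against 0.02 over all genes. The 7 members that fell without IFN-γ were also lower here, and 20 members were higher in both comparisons, which share no library but come from the same fit. The share of all genes called in both is not given here. The upward count depended on scaling: upper-quartile factors gave 28 higher and 8 lower, and log2(TPM + 1) gave 29 and 5. Psmc6 had the largest rise (125 and 120 CPM against 187 and 204 CPM, log2 fold change 0.68), followed by Psmb2 (0.65) and Psmd4 (0.60). Psmd7 was again lowest, at 166 and 178 CPM in controls and 81.0 and 77.9 CPM with TAK-243 (log2 fold change −1.12), before Ddi2 (−0.88) and Psmd5 (−0.60). Psmb5, which did not pass without IFN-γ, was at 54.3 and 59.5 CPM in IFN-γ controls and at 44.7 and 47.5 CPM with TAK-243 (log2 fold change −0.30, adjusted p = 0.000274, edgeR), a call that was lost on log2(TPM + 1) (−0.096, adjusted p = 0.245, limma). Psmb6, Psmb7, Psmd14 and Nfe2l1 rose by 0.35, 0.51, 0.34 and 0.35. Of the pathway genes, 19 rose and 16 fell, with Maff (1.98), Zfand2a (1.96) and Bach1 (1.80) rising most and Psmg3 (−2.73), Ngly1 (−2.46) and Psmb9 (−1.38) falling most.

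The difference between these 2 TAK-243 effects was tested as an interaction. It passed for Psmb4 (−0.23, standard error 0.05, adjusted p = 0.0112, edgeR) and Psmc3 (−0.20, adjusted p = 0.0246), both of them lower with IFN-γ than without, where 2.01% of all genes passed in that direction and 0.371% in the other. At an unadjusted p under 0.05 (edgeR) there were 12 members. The share of all genes at that threshold is not given here, and the shares above are of adjusted calls. Both calls were lost with upper-quartile factors, a minimum of 10 counts, TPM and without any 1 of the 4 TAK-243 libraries, 1 of the 2 was lost without any 1 control library, and both were lost with library totals, where the 1 call was Psmd1 (0.16, adjusted p = 0.0409), in the other direction. The remaining named members ranged from −0.34 (Psmb5) to 0.09 (Psmc6) and did not pass.

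The promoters were read for the antioxidant response element in its short form, TGACNNNGC, on either strand, in RefSeq windows (GRCm38.p6) from 250 bases before to 50 bases after each annotated start. A window was found for 32 of 38 members, and 6 of these 32 (18.8%) held the motif, against 14.0% of all genes with a window and 12.4% of all windows. The stretches that hold it are shown because their letters match the short form of the element through which NRF1 is known to act. Each is written 5′ to 3′ on the strand of the gene, with the motif in capitals, and where it lies on the other strand the capitals show its reverse complement. A stretch is shorter where it met the end of the window or would have passed far beyond the start.
Psmb5, chr14:54618014-54618062, minus strand: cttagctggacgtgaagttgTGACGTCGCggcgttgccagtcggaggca
Psmb6, chr11:70525328-70525356, plus strand: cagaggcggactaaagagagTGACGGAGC
Psmc6, chr14:45329577-45329625, plus strand, motif reversed: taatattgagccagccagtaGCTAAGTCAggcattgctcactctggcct
Psmd12, chr11:107479278-107479309, plus strand, motif reversed: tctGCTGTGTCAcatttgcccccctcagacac
Psmd9, chr5:123228139-123228187, plus strand: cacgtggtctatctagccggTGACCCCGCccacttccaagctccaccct
Psme4, chr11:30771747-30771776, plus strand, motif reversed: gaacctcccggcgctgcggctGCAGCGTCA
The motif began 47 bases before the start in Psmb5, 31 in Psmd9 and 9 in Psmb6, and 227 and 247 bases before it in Psmc6 and Psmd12. With TAK-243 and no IFN-γ, 5 of these 6 genes rose (median log2 fold change 0.37, from 0.03 for Psmb5 to 0.59 for Psmc6). Of the 26 members with a window but no match, 19 rose and 5 fell (median 0.22). With IFN-γ as well, 5 of the 6 rose and 1, Psmb5, fell (median 0.34, against 13 higher, 6 lower and 0.13 without a match). With sgUba1 in cells, 0 of the 6 were higher and 2 lower (median 0.00), against 5 higher and 3 lower (median 0.10) without a match. A match is a run of letters and not a measured binding site.

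IFN-γ alone also moved the set in control cells of the TAK-243 experiment, where 20 members rose and 2 fell, against 19.6% and 9.39% of all genes tested. The median of the members was 0.14 on the main scale and −0.14 on log2(TPM + 1), a scale on which 2 members were called higher and 14 lower and the median of all genes was also −0.14, so the direction depended on the scale. Library totals alone gave 14 higher and 5 lower. On the main scale the largest values were Psmb5 (41.6 ± 1.41 CPM without and 56.9 ± 3.71 CPM with IFN-γ, SD, n = 2; log2 fold change 0.45), Psmb4 (0.38) and Psmd3 (0.38), and the lowest were Psme4 (−0.26), Psmc6 (−0.21) and Psmd6 (−0.09, not called). Psmb6 was called at 0.24, a call lost on log2(TPM + 1) like that of Psmd3, and Nfe2l1, Ddi2, Psmb7 and Psmd14 were not called (0.07, −0.04, 0.08 and −0.03). Of the pathway genes, 19 rose and 4 fell, and the 5 genes of the IFN-induced proteasome, whose beta subunits replace the catalytic ones, all rose, with Psmb10 at 1.73 and Psme1 at 1.13. The strongest, Psmb9, had 0.383 and 0 CPM without IFN-γ and 7.32 and 7.71 CPM with it.

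In control sgRNA cells all 38 members lay above 0 with IFN-γ on the main scale, as did 58.0% of all genes tested. Of the members 2 passed, where 3.03% of genes rose and 0.856% fell. Psmd13 had 94.7 and 87.5 CPM without and 110 and 111 CPM with IFN-γ (log2 fold change 0.28). Psmc2 had 159 and 157 CPM without and 190 and 187 CPM with it (0.25). The median was 0.15 against 0.04 over all genes. With library totals alone the median was 0.08, Nfe2l1 (−0.06), Psme4 (−0.06), Psma4 (−0.03) and Ddi2 (−0.01) lay below 0, and 0 members passed. Psmb4 had the highest value (0.35, not called) and Psme4 the lowest (0.01), followed by Nfe2l1 (0.01) and Psma4 (0.04). This count was unsteady, at 21 members without control sgRNA replicate 1, 10 without replicate 2 and 0 without either IFN-γ library. Psmb4 showed the spread of these controls, with 164 CPM in replicate 1 and 115 in replicate 2.

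With sgUba1 in cells, members were called in both directions. Without IFN-γ, 5 members were higher and 7 lower in sgUba1 cells than in control sgRNA cells, where 16.2% of 15530 genes tested rose and 13.6% fell, and the median of the members was 0.07 against 0.00 over all genes. The split depended on scaling, with 8 higher and 4 lower when library totals alone were used. It also depended on single libraries, since 20 and 19 members were called without control replicate 1 or 2 and 5 and 7 without sgUba1 replicate 1 or 2.

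**Figure D3:**
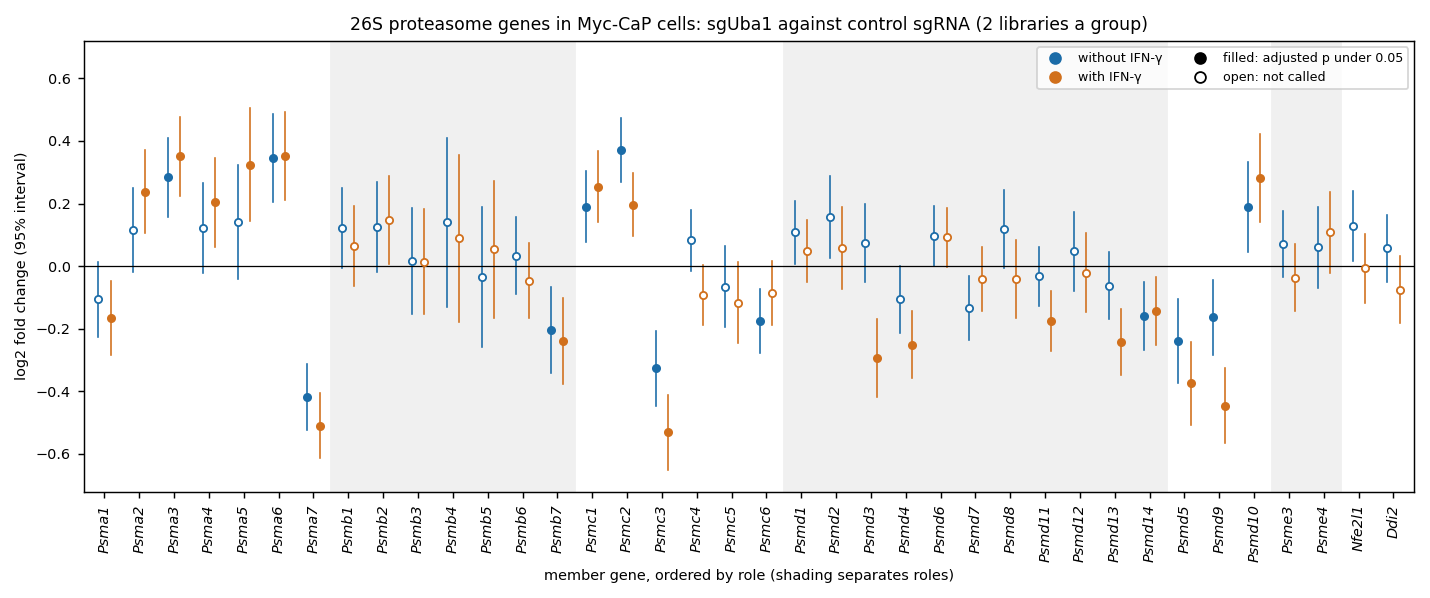
Log2 fold change of each member with sgUba1 against control sgRNA in Myc-CaP cells, without IFN-γ (blue) and with it (orange), with 95% intervals; filled points passed an adjusted p of 0.05. The points lie on both sides of 0, with Psma7 and Psmc3 lowest and Psma3, Psma6 and Psmc2 among the highest.

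Psmc2, an ATPase, had 159 and 157 CPM in control cells and 209 and 200 CPM in sgUba1 cells (log2 fold change 0.37, standard error 0.05, adjusted p = 0.00016, edgeR). The alpha ring genes Psma6 (131 and 112 against 157 and 152 CPM) and Psma3 (210 and 187 against 239 and 243 CPM) rose by 0.35 and 0.28. Psma7, of the same ring, fell from 180 and 184 CPM to 141 and 132 CPM (log2 fold change −0.42, standard error 0.05, adjusted p = 8.47e-05). Psmc3 fell from 239 and 263 CPM to 202 and 199 CPM (−0.33) and Psmd5 from 83.9 and 73.8 CPM to 65.9 and 67.7 CPM (−0.24). In each of these 6 genes the groups did not overlap, as was so for 31.1% of all genes upward and 29.4% downward. Psmc3 and Psmd5 did not pass on log2(TPM + 1) (adjusted p = 0.0689 and 0.0904, limma), nor did Psmd5 without either sgUba1 library (log2 fold change −0.25 and −0.26).

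Nfe2l1 had 115 and 125 CPM in control cells and 130 and 133 CPM in sgUba1 cells (log2 fold change 0.13, 95% interval 0.02 to 0.24, not called), and Ddi2 had 140 and 132 against 143 and 140 CPM (0.06, −0.05 to 0.17, not called). Psmb7 was called lower (182 and 158 against 149 and 147 CPM, −0.20), as was Psmd14 (126 and 121 against 109 and 113 CPM, −0.16), but both calls were lost with library totals (adjusted p = 0.0592 and 0.0619, edgeR), with TPM, in a fit of the 2 groups alone and without either sgUba1 library. Nfe2l1 passed with library totals (0.15, adjusted p = 0.0308) and without control replicate 2 (0.19, adjusted p = 0.00485). Psmb6 (0.03) and Psmb5 (−0.03) were not called. Of the 43 pathway genes tested, 9 rose and 8 fell, with Maff (−1.03), Mafk (−0.50) and Nfe2l2 (−0.45), the gene of NRF2, falling most. Among the rises were Sel1l (0.45), an adaptor of endoplasmic reticulum quality control, and Ngly1 (34.2 and 32.6 against 41.5 and 41.9 CPM, 0.32). Psmb9 and Psmb8 were near 0 in all these libraries, at most 0.479 CPM, and their fold changes are not given, although both were called higher. The summed epithelial markers were 9.96 and 12.1 CPM in sgUba1 cells against 3.27 and 3.76 CPM in controls, and their part in the result was not tested.

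With IFN-γ, 8 members were higher and 11 lower in sgUba1 cells, where 17% of genes rose and 22.4% fell. The median was −0.03, and it was 0.06 with library totals alone, which gave 12 higher and 7 lower. Psma6 (137 and 141 against 179 and 175 CPM, 0.35), Psma3 (0.35) and Psma5 (0.32) were highest. Psmc3 (286 and 294 against 197 and 204 CPM, −0.53), Psma7 (−0.51) and Psmd9 (−0.45) were lowest. Psmb7 and Psmd14 were called lower again (−0.24 and −0.14). The Psmd14 call was lost with every other scaling and filter, by DESeq2, with TPM and without any of the 4 libraries (adjusted p up to 0.546), and the Psmb7 call with library totals (0.0885) and without 3 of the 4. By contrast Nfe2l1 (−0.01), Ddi2 (−0.08), Psmb5 (0.05) and Psmb6 (−0.05) were not called. Without IFN-γ and with it, 5 members were called higher and 6 lower in both, and the share of all genes called in both is not given here. All 5 genes of the IFN-induced proteasome rose, with Psmb9 at 0.887 and 0.963 CPM in controls and 5.92 and 5.50 CPM in sgUba1 cells. In all, 14 pathway genes rose and 14 fell, with Psmb9, Psmb8 and Psmb10 (0.88) highest and Nfe2l2 (−0.91), Ubqln2 (−0.69), a ubiquitin shuttle, and Maff (−0.68) lowest.

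The interaction of sgUba1 with IFN-γ passed for 1 member, Psmd3 (−0.37, standard error 0.08, adjusted p = 0.033, edgeR), which had 155 and 174 CPM in controls and 172 and 174 CPM in sgUba1 cells without IFN-γ, and 185 and 181 against 147 and 151 CPM with it. Over all genes, 3.97% were called lower and 0.663% higher in this test. At an unadjusted p under 0.05 (edgeR) there were 7 members, and the share of all genes at that threshold is not given here. The call was lost with library totals (adjusted p = 0.0693, edgeR), upper-quartile factors (0.0801) and TPM, and without any 1 of the 6 libraries that carried sgUba1 or were IFN-γ controls (0.114 to 0.3). The other named members lay between −0.28 (Psmd9) and 0.18 (Psma5).

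The TAK-243 and sgUba1 effects in cells were compared directly, without IFN-γ, as the difference of the log2 fold changes in a single fit of the 16 cell libraries. The TAK-243 effect was higher for 19 members and lower for 7, where 25.2% and 30.2% of 15708 genes were. Library totals alone gave 14 and 9. The largest differences were in Psmc6 (0.74, standard error 0.07, adjusted p = 8.43e-09, edgeR), Psmb7 (0.72) and Psmd4 (0.71) on the upper side and in Ddi2 (−0.94), Psmd7 (−0.93) and Psme3 (−0.43) on the lower. Nfe2l1 differed by 0.28 (adjusted p = 0.00146), a call that was lost with library totals (0.15, adjusted p = 0.0522) and on log2(TPM + 1) (0.19, adjusted p = 0.321). Psmd14 differed by 0.46 and Psmb6 by 0.34, while the difference for Psmb5 (0.045) did not pass. Of the 12 members called with sgUba1, 5 were called higher under both perturbations (Psma3, Psma6, Psmc1, Psmc2, Psmd10), 2 lower under both (Psma7, Psmd5), and 5 higher with TAK-243 and lower with sgUba1 (Psmb7, Psmc3, Psmc6, Psmd14, Psmd9). TAK-243 called 32.3% of all genes higher and 34.0% lower, and the share of all genes called under both is not given here. The drug and the sgRNA were used in separate experiments with different depths, and their doses cannot be matched.

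In tumors, 1 member passed in 1 of 4 comparisons. The median of the members was 0.21 for sgUba1 in Myc-CaP, −0.14 for sgUba1 in B16-BL6, 0.03 for Uba1 OE and −0.11 for TAK-243, against 0.00 to 0.01 over all genes tested. The OE median was −0.03 with library totals or upper-quartile factors, −0.05 on log2(TPM + 1) and −0.03 without OE replicate 1, and the TAK-243 median was −0.05 without TAK-243 replicate 4 and −0.03 on log2(TPM + 1).

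**Figure D4:**
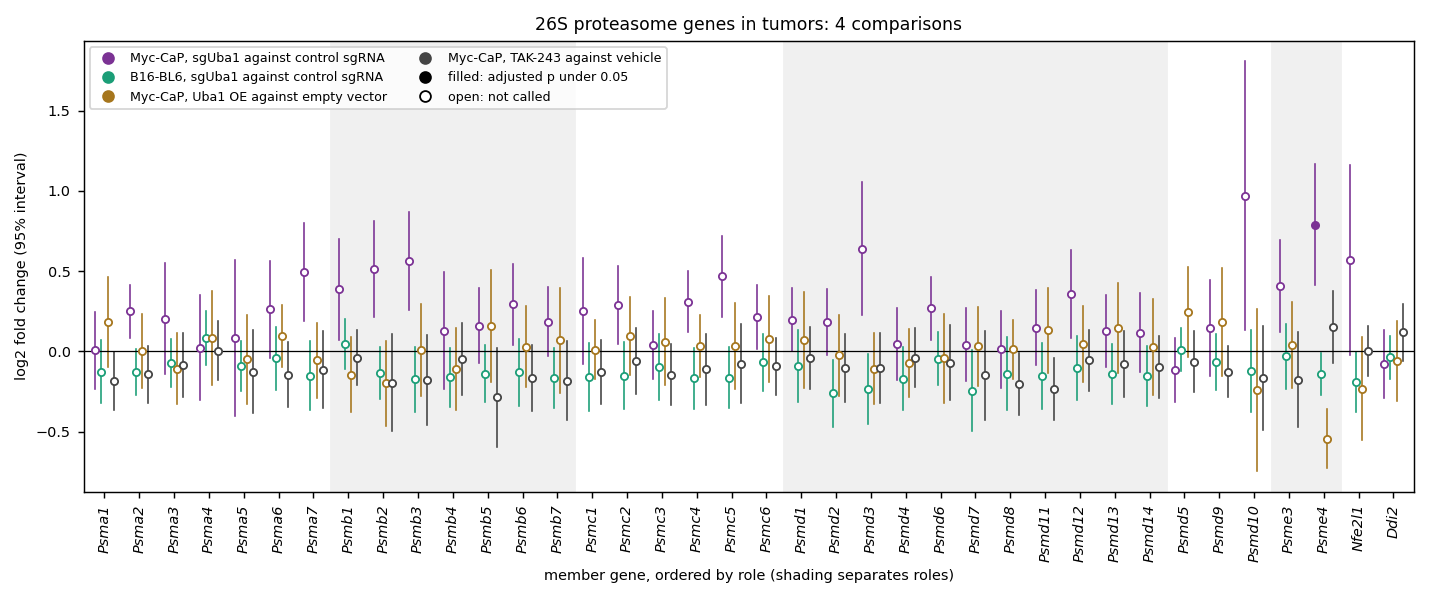
Log2 fold change of each member in 4 tumor comparisons, with 95% intervals from edgeR; the single filled point, Psme4 in Myc-CaP tumors labelled sgUba1, passed an adjusted p of 0.05. The Myc-CaP sgUba1 series lies above 0 for 36 of 38 members, and the B16-BL6 series below 0 for 35. Of all genes tested, 50.1% lay above 0 in the Myc-CaP sgUba1 comparison and 52.6% in the B16-BL6 comparison.

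In Myc-CaP tumors labelled sgUba1, Psme4 rose, where 3.04% of 16202 genes were called in either direction. It had 256, 344 and 419 CPM in the control tumors and 497 to 740 CPM, with a median of 569, in the 7 tumors labelled sgUba1. No tumor overlapped with the controls (log2 fold change 0.79, standard error 0.17, adjusted p = 0.0398, edgeR). The call was lost when control replicate 2 was left out (log2 fold change 0.61, adjusted p = 0.157), or control replicate 3 (0.124), or any of replicates 1 and 4 to 7 of the tumors labelled sgUba1 (0.0634 to 0.0798). Of the other members, 12 lay higher in all 7 tumors than in all 3 controls without passing, so that 13 of 38 did not overlap, against 5.54% of all genes in that direction. They included Psmb3 (0.56, adjusted p = 0.0556), Psmc5 (0.47, 0.0548) and Psmd3 (0.64, 0.0818). By DESeq2, 10 members were called, all of them higher, where that test called 11.5% of all genes.

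Psmd10 had the highest value (log2 fold change 0.97, adjusted p = 0.16), and its tumors fell apart. It was at 16.3, 26.02 and 27.8 CPM in controls, at 25.1, 25.8 and 26.2 CPM in replicates 1 to 3 and at 57.5 to 62.7 CPM in replicates 4 to 7 of the tumors labelled sgUba1. Nfe2l1 was arranged in the same way, at 262, 280 and 311 CPM in controls, 275, 282 and 291 CPM in replicates 1 to 3 and 454 to 592 CPM in replicates 4 to 7 (log2 fold change 0.57, 95% interval −0.02 to 1.16, adjusted p = 0.226). These are the 4 tumors whose Uba1 was above the controls. Psme4 did not follow this order, with 521 to 635 CPM in replicates 1 to 3. Libraries were also compared in pairs by chi-squared per degree of freedom. It was 61.3 to 86.9 between replicates 1 to 3 and 4 to 7, and at most 22.7 within either set. Control replicate 2 differed from the other controls by 83.8 and 62.1. The labels do not say what sets these tumors apart or whether all 7 came from 1 line. The study describes independent sgRNAs against Uba1 for Myc-CaP tumors, and the labels do not say which was used. Replicates 4 to 7 were not fitted as a group of their own, and a fit that leaves them out is given below.

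**Figure D5:**
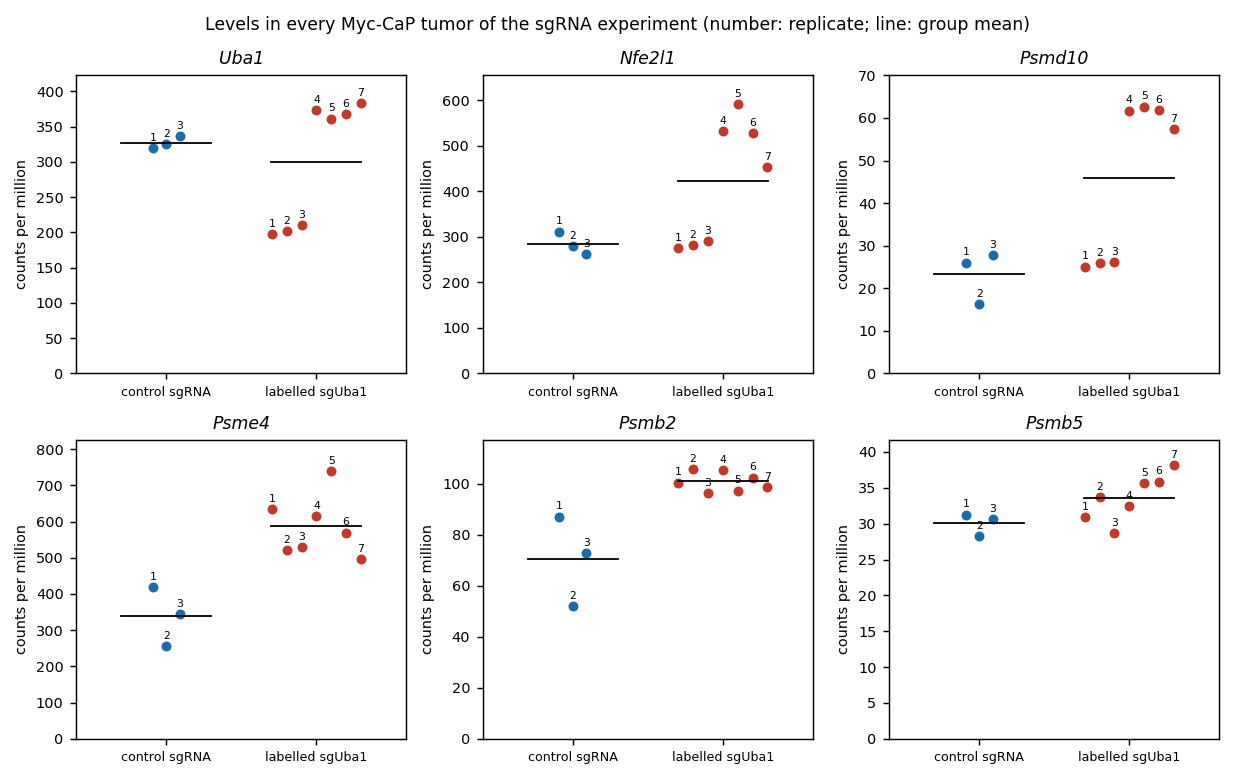
CPM of Uba1 and 5 members in each of the 3 control and 7 sgUba1-labelled Myc-CaP tumors, numbered by replicate, with group means as lines. Replicates 4 to 7 are high in Uba1, Nfe2l1 and Psmd10, and all 7 tumors are above the controls in Psme4 and Psmb2.

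When the 4 tumors with Uba1 RNA above the controls were left out, edgeR called 0 members and 1 gene of 15679. The median of the members was then 0.24. Psme4 stayed at 0.72 on the log2 scale in this edgeR fit (adjusted p = 0.152), while Psmd10 was at 0.13 and Nfe2l1 at −0.01. Control replicate 2 had the lowest mean of the members, 6.35 on the log2 CPM scale against 6.58 and 6.61 in the other controls and 6.71 to 6.83 in the 7 tumors. Psmb2 was at 51.9 CPM in that control, at 87.1 and 72.7 CPM in the others and at 96.4 to 106 CPM in all 7 tumors (log2 fold change 0.52, adjusted p = 0.0642). Summed epithelial markers were 331 CPM in that control and 42.5 and 47.9 CPM in the others, and leukocyte markers were 305 to 506 CPM in the 7 tumors against 166 to 302 CPM in controls. Their part in the result was not tested. The remaining named members, Psma1 (0.01), Psmd5 (−0.12), Ddi2 (−0.08), Psmb5 (0.16), Psmb6 (0.29), Psmb7 (0.19) and Psmd14 (0.12), did not pass. Of the 43 pathway genes, Vcp passed (0.50, standard error 0.10, adjusted p = 0.0356, edgeR), and in the other 3 tumor comparisons 0 did.

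In B16-BL6 tumors, where all 4 sgUba1 tumors had Uba1 below all controls, 0 of 38 members passed in edgeR, DESeq2 or limma-voom, where 0.724% of 17539 genes were called by edgeR. In edgeR 4 members had an unadjusted p under 0.05, a threshold for which the share of all genes is not given here. The lowest values were Psmd2 (−0.26), Psmd7 (64.3 to 91.0 against 78.8 to 93.0 CPM, −0.24) and Psmd3 (−0.24), and the highest Psma4 (0.08), Psmb1 (0.05) and Psmd5 (0.01). Nfe2l1 had 161 to 195 CPM with sgUba1 and 191 to 227 CPM in controls (log2 fold change −0.19, 95% interval −0.38 to −0.01, adjusted p = 0.296). Psme4 had 209 to 223 CPM against 226 to 244 CPM, with no overlap (−0.14, adjusted p = 0.287, edgeR). That was so, downward, for 8.01% of all genes and for 1 of 38 members. Ddi2 (−0.04), Psmb5 (−0.14), Psmb6 (−0.13), Psmb7 (−0.16) and Psmd14 (−0.15) overlapped between groups. A rise of any of these 6 beyond 0.10 lay outside its 95% interval.

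With Uba1 OE, 0 of 38 members passed in edgeR and limma-voom and 1 in DESeq2, where edgeR called 0.0269% of 14853 genes and DESeq2 4.87%. In edgeR 1 member had an unadjusted p under 0.05, a threshold for which the share of all genes is not given here. That member was Psme4, at 375, 381, 409 and 438 CPM with OE and 569, 576 and 607 CPM with empty vector. Its groups did not overlap (log2 fold change −0.54, standard error 0.08, adjusted p = 0.116 in edgeR and 1.99e-06 in DESeq2). Such a gap was found downward for 10.1% of all genes and for 1 of 38 members. In edgeR Psme4 passed when OE replicate 1 or 4 was left out (adjusted p = 0.0204 and 0.0399). Psmd5 (0.25), Psmd9 (0.18) and Psma1 (0.18) were highest, and Psmd10 (−0.24) and Nfe2l1 (203 to 299 against 268 to 328 CPM, −0.23, 95% interval −0.55 to 0.09) followed Psme4 at the low end. Ddi2 (−0.06), Psmb5 (0.16), Psmb6 (0.03), Psmb7 (0.07) and Psmd14 (0.03) overlapped between groups.

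With TAK-243 given to mice, 0 of 38 members passed in edgeR, DESeq2 or limma-voom, where edgeR called 0.145% of 17299 genes. In edgeR 3 members had an unadjusted p under 0.05, a threshold for which the share of all genes is not given here. Of the 38, 34 lay below 0, while 52.4% of all genes tested lay above 0. Psmb5 was lowest, at 21.0 to 31.4 CPM (median 28.8) with TAK-243 and 25.98 to 39.0 CPM with vehicle (log2 fold change −0.29, 95% interval −0.60 to 0.02, adjusted p = 0.365), followed by Psmd11 (−0.24) and Psmd8 (−0.21). Psme4 (0.15), Ddi2 (0.12) and Psma4 (0.00) were highest. Nfe2l1 had 246 to 295 CPM with TAK-243 and 245 to 289 CPM with vehicle, a log2 fold change of 0.00 with a 95% interval from −0.15 to 0.16. Psmb6 (−0.17), Psmb7 (−0.18) and Psmd14 (−0.10) overlapped as well. TAK-243 replicate 4 had the lowest mean of the members, 6.29 on the log2 CPM scale against 6.53 to 6.63 in the other 4.

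The TAK-243 effect was therefore set against itself in cells and tumors in a single fit without IFN-γ. It was higher in cells for 13 members and lower for 3, where 14.2% and 14.9% of 18434 genes were, and 7 and 3 with library totals alone. The count rested on the cell libraries, since 7 or 8 members passed without any single one of the 4. Psmb2 (0.91, standard error 0.27, adjusted p = 0.0181, edgeR), Psmb7 (0.72) and Psma2 (0.68) differed most upward, and Ddi2 (−0.98, adjusted p = 0.000115), Psmd7 (−0.90) and Psmd5 (−0.49) downward. Nfe2l1 differed by 0.42 (adjusted p = 0.0254) and Psmb6 by 0.55, calls that were lost with library totals (0.25 and 0.39, adjusted p = 0.178 and 0.141), with TPM and without any 1 of the 4 cell libraries, and Psmb2 was lost with library totals (0.74, adjusted p = 0.0524). In the main fit Psmb5 (0.32) and Psmd14 (0.41) did not pass, and Psmd14 did with upper-quartile factors (0.46, adjusted p = 0.021). The tumor comparison was made after repeated doses and the cell comparison after 18 h, so that time, dose and surroundings cannot be told apart.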

How the data were processed

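RNA-seq gene tables of 51 mouse libraries were used. Per the labels, reads were quantified by kallisto on mm10 after poly-A selection, although the study's methods name ribosomal depletion. The deposited expected counts (estimated counts that need not be whole) were rounded, and the deposited TPM served for levels between genes and as an alternative scale. Versions of kallisto and its settings are not given in the sources used here. Counts were normalised by TMM, filtered by filterByExpr and tested by edgeR's quasi-likelihood test (edgeR 4.0.16, limma 3.58.1, DESeq2 1.42.0, R 4.3.3), with Benjamini-Hochberg adjustment over all genes tested and a threshold of 0.05. CPM values use the TMM factors of each fit. Cell experiments were fitted with 4 groups each and each tumor experiment alone. The design had been written for counts.

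The members, the pathway and marker lists and the comparisons were chosen with earlier results of these data known. Values are given for Nfe2l1, Ddi2, Psmb5, Psmb6, Psmb7 and Psmd14 and, in each comparison, for the 3 members with the largest and the 3 with the smallest log2 fold change; pathway genes are counted and the 3 largest called changes in each direction named. Any other gene was named after its values were seen. Of 45 pathway genes 44 were in the table and 43 passed the filter. The fits were tested on simulated data. Same-numbered libraries showed little shared deviation (correlations of −0.18 to 0.31), and the replicate number was not used as a pairing in the main fits. With so few libraries a group, this check cannot exclude a pairing. No 2 replicates were identical among 75 pairs. Alternatives were other scalings, filters, tests and units, each library left out, the replicate block and other sets of libraries. Positions and promoters come from RefSeq on GRCm38.p6, the same build as mm10. Intervals are 95% and cover the spread between libraries.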

Additional observations from a re-analysis of the deposited data

Results flagged for a closer look

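Of 64 sets of samples examined for a value far from the rest, 3 held one, where chance gives about 1 in 20. Psma1 was at 62.9 CPM in replicate 5 of the Myc-CaP tumors labelled sgUba1 and at 73.5 to 77.6 CPM in the other 6. The mean of the 38 members on the log2 CPM scale was 6.50 in Uba1 OE replicate 3 and 6.75 to 6.77 in the other 3 OE tumors. It was 6.29 in TAK-243 tumor replicate 4 and 6.53 to 6.63 in the other 4.

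The other results differed between settings by a test of the difference itself. The TAK-243 effect in cells differed with IFN-γ for 2 members, Psmb4 (−0.23) and Psmc3 (−0.20), and the sgUba1 effect for 1, Psmd3 (−0.37). These 3 calls were lost under several scalings and left-out libraries. The TAK-243 and sgUba1 effects in cells differed for 26 members, among them Psmb6 (0.34), Psmb7 (0.72), Psmc6 (0.74), Psmd4 (0.71), Psmd14 (0.46) and Nfe2l1 (0.28), higher with TAK-243, and Psmd7 (−0.93), Psme3 (−0.43) and Ddi2 (−0.94), lower with it. The TAK-243 effect differed between cells and tumors for 16 members, with Psma2 (0.68), Psmb2 (0.91), Psmb6 (0.55), Psmb7 (0.72) and Nfe2l1 (0.42) higher in cells and Psmd7 (−0.90), Psmd5 (−0.49) and Ddi2 (−0.98) lower.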

How the results depend on the processing

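The counts of members called for TAK-243 in cells without IFN-γ (35), with IFN-γ (29), for IFN-γ in the TAK-243 experiment (22) and for TAK-243 minus sgUba1 (26) stayed within 1.5 times under every alternative run. These counts add both directions. For IFN-γ in the TAK-243 experiment the direction turned on log2(TPM + 1), from 20 higher and 2 lower to 2 higher and 14 lower. The causes of the changes below were not tested. For TAK-243 by IFN-γ, 1 member was called higher with library totals (against 2 lower in the report), 1 lower by DESeq2, 0 with upper-quartile factors, a minimum of 10 counts or TPM, and 0 to 1 without a library. For sgUba1 in cells, 5 were called with TPM or the 2 groups alone and 5 to 20 without a library, and with IFN-γ 12 to 15 without a library. For IFN-γ in sgRNA controls, 0 were called with library totals, upper-quartile factors, a minimum of 10 counts, TPM or the 2 groups alone, 14 with no filter and 0 to 21 without a library. For sgUba1 by IFN-γ, 0 were called with library totals, upper-quartile factors and TPM, and 0 to 10 without a library. In Myc-CaP tumors labelled sgUba1, 5 were called with library totals, 3 with upper-quartile factors, 0 with no filter and 10 by DESeq2. With TPM (pseudocount 1 or 0.1) 4 or 5 were called, and 7 with all 17 sgRNA and OE tumors fitted together. Without the 4 tumors whose Uba1 was above the controls (an alternative chosen after seeing the data) 0 were called, and 0 to 3 without a library. With OE, 1 was called by DESeq2 and 0 to 1 without a library. For TAK-243 in cells minus tumors, 10 were called with library totals and 7 to 17 without a library.

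The sign turned for the median of IFN-γ in the TAK-243 experiment with TPM (−0.14), as for Psmb7 there (−0.15), for that of TAK-243 by IFN-γ with TPM (0.098 and 0.099), for that of sgUba1 with IFN-γ (0.058 with library totals, 0.029 with upper-quartile factors, and from −0.033 to 0.042 without a library, above 0 without sgUba1 replicate 1 or 2 with IFN-γ), and for that of sgUba1 by IFN-γ (0.0047 and 0.0062 with those scalings, and from −0.094 to 0.017 without a library, above 0 without sgUba1 replicate 2 with IFN-γ). The OE median (0.03) was also below 0 with library totals, upper-quartile factors and TPM (−0.033, −0.028 and −0.046) and without OE replicate 1 (−0.029). Psmb5 with sgUba1 ranged from −0.22 without control replicate 2 to 0.18 (adjusted p = 0.0385, edgeR) without control replicate 1.

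The replicate number was also used as a block, though it is not known to pair these samples. The members called then went from 2 to 5 for IFN-γ in sgRNA controls and from 2 to 3 for TAK-243 by IFN-γ. No other count of members moved by over 1.5 times, except from 1 to 0 in Myc-CaP tumors labelled sgUba1. All genes called in those tumors went from 492 to 2. DESeq2 called 1862 genes there, 532 in B16-BL6, 723 with OE and 558 with TAK-243 in tumors, against 492, 127, 4 and 25 by edgeR. With 2 libraries a group in cells, a left-out library leaves a lone sample that is assumed to vary like the other groups.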
